A study of Mus musculus with 10 samples.

Results

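Messenger RNA of 32 genes of glycolysis and of the response to low oxygen was followed in cultured mouse T helper cells. A gene was measured where the array's annotation gives it a probe set that names no other gene, and among several such probe sets the one with the highest mean over the 10 arrays was used. By that rule 28 of the 32 were measured, among 22180 genes in all. They were 12 glycolytic enzymes, 4 glucose and lactate transporters, 4 hypoxia-inducible factor (HIF) genes and HIF hydroxylases, and 8 other HIF targets. Gpi1, Aldoa, Eno1 and Ankrd37 had no such probe set and are not described.

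The cells were CD4+ lymphocytes isolated from spleens of wild-type female BALB/c mice aged 10 to 14 weeks. Every culture received anti-CD3 at 4 µg/ml and anti-CD28 at 30 ng/ml, and fresh differentiation medium at 72 h. The 4 Th17 cultures also received IL-6 at 20 ng/ml, TGFβ at 5 ng/ml, IL-23 at 10 ng/ml and anti-IFNγ at 10 µg/ml. The 3 Th2 cultures received IL-4 at 100 ng/ml and anti-IFNγ at 10 µg/ml. The 3 Th0 cultures were the controls and received neither cytokines nor anti-IFNγ, so a cytokine and the antibody cannot be told apart in a comparison with Th0. When the cultures were harvested is not known from the labels. The labels call the replicates biological, and do not say whether they came from separate animals.

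Glycolysis breaks glucose down to pyruvate in the cytosol, and activated T cells run it at a high rate and release much of the product as lactate. HIF-1α (Hif1a) and HIF-2α (Epas1) pair with ARNT and bind short DNA elements near their targets, which include most glycolytic enzymes, the glucose transporter GLUT1 and the lactate exporter MCT4. With oxygen present, the prolyl hydroxylases Egln1 and Egln3 mark both factors for destruction through VHL, and both hydroxylase genes are themselves HIF targets. In T cells, HIF-1α is also made in normal oxygen after receptor signalling and is known for a part in Th17 differentiation. Much of HIF control acts on the protein, which arrays of RNA do not measure.

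HIF recognises a core of 5 letters, ACGTG or GCGTG, and the sequences before 6 members' transcription starts are shown because these genes had the largest differences between groups among members with that core. Each is the 250 bases before the start in RefSeq's GRCm38.p6 annotation, on the gene's own strand from 5′ to 3′. Capitals mark the core on either strand, so that its reverse complement CACGT or CACGC is in capitals too, and overlapping matches are joined.
Egln3 (chr12:54203875-54204124, minus strand): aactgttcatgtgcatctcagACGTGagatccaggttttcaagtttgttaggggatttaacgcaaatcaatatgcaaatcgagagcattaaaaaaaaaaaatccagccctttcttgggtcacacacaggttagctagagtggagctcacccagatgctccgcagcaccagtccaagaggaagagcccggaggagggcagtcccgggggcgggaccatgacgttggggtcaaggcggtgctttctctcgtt
Mxi1 (chr19:53329163-53329412, plus strand): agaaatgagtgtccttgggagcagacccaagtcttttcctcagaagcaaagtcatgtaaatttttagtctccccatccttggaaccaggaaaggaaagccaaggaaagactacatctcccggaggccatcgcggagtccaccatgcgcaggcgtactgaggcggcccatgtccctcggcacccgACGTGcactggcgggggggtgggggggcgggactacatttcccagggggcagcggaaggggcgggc
Bnip3 (chr7:138909507-138909756, minus strand): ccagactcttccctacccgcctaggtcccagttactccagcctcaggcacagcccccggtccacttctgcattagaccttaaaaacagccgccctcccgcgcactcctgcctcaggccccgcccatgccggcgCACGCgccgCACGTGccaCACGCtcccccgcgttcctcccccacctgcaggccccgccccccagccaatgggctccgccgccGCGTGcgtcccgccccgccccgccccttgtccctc
Slc16a1 (chr3:104638414-104638663, plus strand): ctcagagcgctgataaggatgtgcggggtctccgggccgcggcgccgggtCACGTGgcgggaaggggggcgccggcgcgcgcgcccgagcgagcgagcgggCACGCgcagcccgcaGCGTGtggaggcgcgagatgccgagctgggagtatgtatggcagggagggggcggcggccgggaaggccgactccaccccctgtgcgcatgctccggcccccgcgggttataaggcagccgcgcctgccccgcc
Slc16a3 (chr11:120948817-120949066, plus strand): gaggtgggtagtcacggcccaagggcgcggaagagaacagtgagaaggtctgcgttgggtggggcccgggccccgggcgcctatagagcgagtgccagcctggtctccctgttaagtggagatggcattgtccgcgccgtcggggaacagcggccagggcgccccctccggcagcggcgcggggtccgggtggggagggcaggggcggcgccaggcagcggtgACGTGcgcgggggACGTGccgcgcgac
Egln1 (chr8:124949255-124949504, minus strand): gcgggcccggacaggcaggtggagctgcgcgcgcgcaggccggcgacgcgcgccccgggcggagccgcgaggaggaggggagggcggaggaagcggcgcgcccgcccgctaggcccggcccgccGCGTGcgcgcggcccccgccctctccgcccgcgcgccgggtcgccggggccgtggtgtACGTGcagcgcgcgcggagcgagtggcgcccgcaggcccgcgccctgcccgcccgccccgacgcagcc
Bnip3 had 4 such sites, Slc16a1 had 3, Slc16a3 and Egln1 had 2 each, and Egln3 and Mxi1 had 1 each. The Mxi1 sequence belongs to 1 of 3 starts in the table. In Bnip3 and Slc16a1 a site read CACGTG, the palindrome that MYC-family factors also recognise.

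A promoter sequence was matched for 26 of the 28 measured members, and 24 of those 26 (92.3%) held the core in at least 1 of their promoters. The share was 41.5% of the 27025 genes in the whole table and 47.8% of the 16990 genes that were also measured on the arrays. By promoter it was 80% of 35 for the members, against 38.6% and 44.7%. The members' promoters also held more CG dinucleotides, with a median of 14 per promoter against 6 in the table and 10 among measured genes. Per 100 CG dinucleotides there were 8.47 core sites in members, against 5.97 in the table and 5.79 among measured genes. CACGTG stood in 14.3% of the members' promoters, against 6.02% and 6.82%. Several members were listed as known HIF targets, so these shares are a description of the list. The letters ACGTG and GCGTG were in neither strand of this window in Tpi1 or Gbe1. Epas1 and Slc2a3 are without a sequence here.

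**Figure D1:**
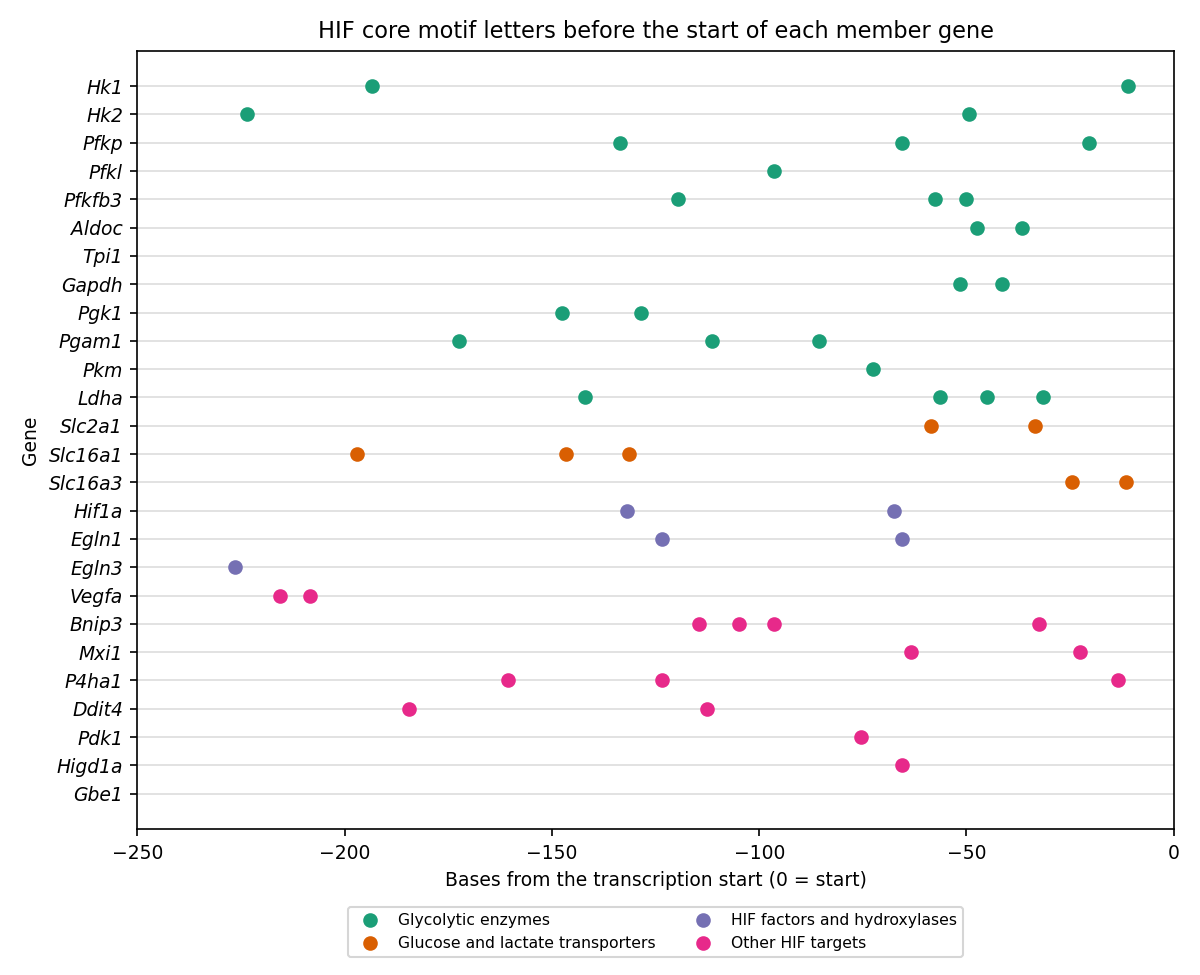
Positions of the HIF core letters (ACGTG or GCGTG, either strand) in the 250 bases before the transcription start, with 1 row for each of the 26 members with a promoter sequence and 1 point for each site, coloured by role. Sites of several promoters of a gene share its row, and the rows of Tpi1 and Gbe1 are empty.

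All values are log2 RMA expression values, and the median over all genes and arrays was 3.57. The T cell markers were present, with Cd3e between 9.36 and 10.4 and Cd4 between 7.09 and 8.76 on the 10 arrays. Il17f, a Th17 cytokine, was between 9.55 and 10.9 in Th17, between 5.48 and 6.66 in Th2 and between 4.98 and 5.68 in Th0 cultures. Gata3, the Th2 lineage factor, was between 7.14 and 8.15 in Th2 cultures, which overlapped the 7.43 to 8.14 of Th0 cultures. Th2 replicates 2 and 3 and Th17 replicate 4 stood apart on the first principal component of all genes, which held 35.8% of the variance. On these 3 arrays T cell activation genes had mean levels of 8.85 to 9.41, against 7.77 to 8.61 on the other 7. Single activation genes did not all follow, and Tnfrsf9 was highest on Th0 replicate 2 (9.19). The 3 measured erythroid and platelet markers had mean levels of 3.25 to 3.71 on the arrays apart, against 4.48 to 7.20. Markers of basophils and mast cells had their highest mean levels on Th17 replicates 2 and 3 (5.77 and 5.84) and Th0 replicate 1 (6.99), against 3.29 to 4.33 on the other 7 arrays. Cell cycle genes, all on the log2 scale, had mean levels of 6.77 to 7.78 in Th17, 6.75 to 8.32 in Th2 and 7.75 to 8.21 in Th0 cultures. Myeloid markers had a mean level of 4.64 on Th17 replicate 1, against 3.22 to 3.57 on the other 9 arrays. Results without the 3 arrays apart stand beside many of the main ones below, and there Th2 replicate 1 is alone in its group. Without the 3 arrays with most basophil signal, the members' median difference was −0.38 in Th17 minus Th0, against −0.24 with all arrays. It was −0.72 against −0.47 in Th2 minus Th0 and 0.26 against 0.33 in Th17 minus Th2. Of 28 signs, 1, 0 and 5 turned in these contrasts. For single members this setting is given for Epas1 only. The part of cell cycle, T cell activation, myeloid, B cell, and erythroid and platelet signal in the results was not tested.

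The widest pattern among the members lay in a single array. Th0 replicate 2 held the highest of the 10 values for 21 of 28 members (75%), against 8.46% of all genes. It was above the mean of the other Th0 arrays for 28 of 28 members and for 46.9% of all genes. The gap was 1.00 at the median, from 0.22 for Ldha to 2.20 for Gbe1, and 14 members had a gap over 1, against 1.37% of all genes. Of 108 further genes of the same pathways, 17 had their highest value there.

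Each role took part in it. As a mean over genes of the deviation from each gene's mean on the 10 arrays, Th0 replicate 2 stood at 0.86 for the enzymes, 1.17 for the transporters, 1.23 for the HIF factors and hydroxylases and 1.04 for the other targets. For all 28 members the deviation was 0.33, −0.28, 0.09 and −0.32 on Th17 replicates 1 to 4. It was 0.04, −0.35 and −0.46 on the Th2 arrays, and −0.12, 1.01 and 0.06 on the Th0 arrays. Th0 replicate 2 was the highest array, and the other Th0 arrays lay inside the range of the Th17 arrays. Cell cycle genes deviated by 0.68 on Th0 replicate 2 and by 0.70 on Th0 replicate 3, where the members deviated by 0.06. T cell identity genes were also higher on Th0 replicate 2, with a mean level of 9.46 against 8.46 to 9.20 on the other arrays, and 4 of 8 had their highest value there. Of the CD8 and NK cell markers 3 of 7 were highest there, Cd8a (5.63) and Cd8b1 (7.21) among them, and of the B cell markers 1 of 7. Other CD8 and NK cell markers went the other way, with Klrb1c (2.61) and Eomes (4.82) at their lowest Th0 value there. The median deviation of that list on Th0 replicate 2 was −0.11. Over the whole CD8 and NK cell list the mean level was 4.52 to 4.87 in Th17, 4.12 to 4.19 in Th2 and 4.33 to 4.96 in Th0 cultures, with 4.96 on Th0 replicate 2. For the B cell list it was 3.59 to 4.84 in Th17, 3.72 to 4.20 in Th2 and 3.89 to 4.84 in Th0 cultures, with 4.84 on Th0 replicate 2. The part of these markers in the pattern was not tested. In bulk cultures, fewer cells of a type and less RNA per cell cannot be told apart.

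**Figure D2:**
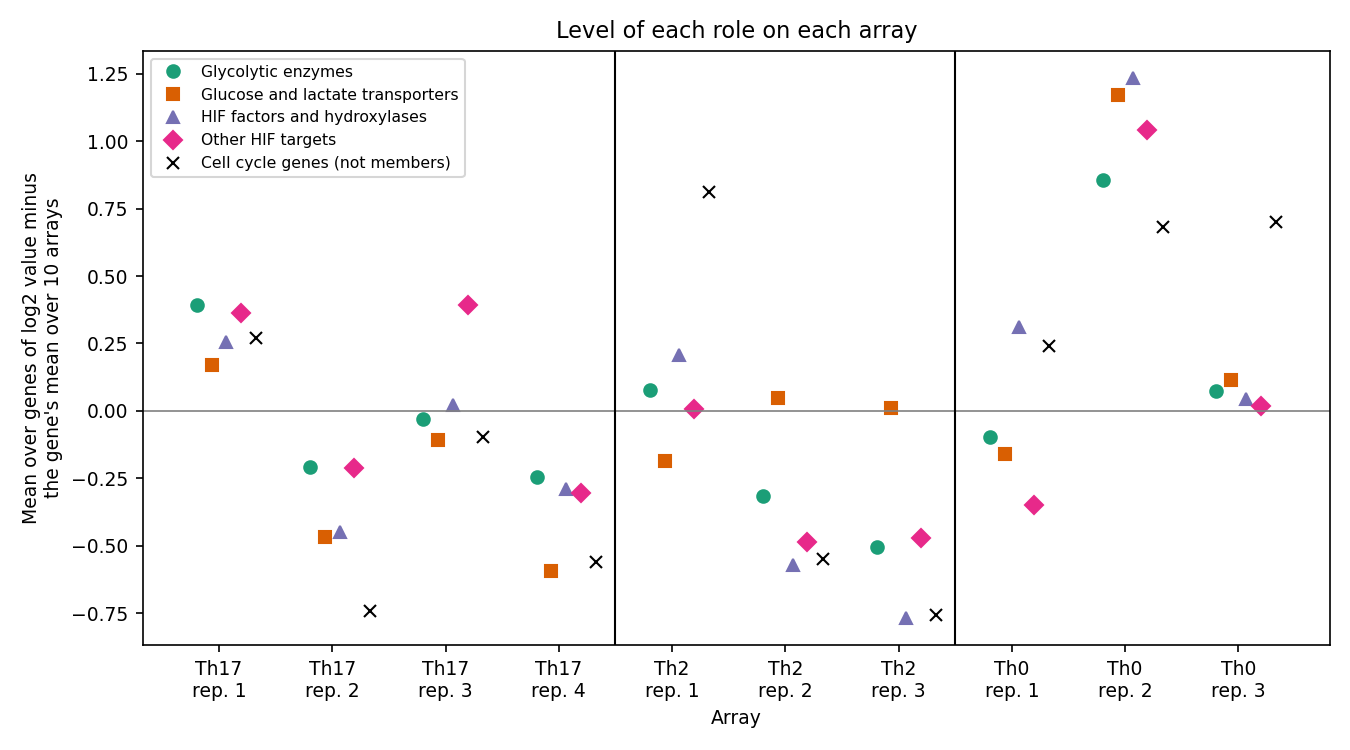
Mean deviation of the log2 value from each gene's mean over the 10 arrays, for the 4 roles and for cell cycle genes, on each array, with Th17, Th2 and Th0 arrays from left to right. All 4 roles are highest on Th0 replicate 2, between 0.86 and 1.23.

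Smaller shifts of the same kind ran within the other groups. Th17 replicate 1 lay above the mean of the other Th17 arrays for 26 of 28 members and for 50.1% of all genes. The members' median gap was 0.39. Th17 replicate 1 also had the highest mean level of the Th17 arrays for the myeloid list (4.64) and the B cell list (4.84). Of the myeloid markers 4 of 8 had their highest value of the 10 arrays there, and of the B cell markers 3 of 7. S100a8 was at 7.16, against 2.54 to 2.68 on the other Th17 arrays, and Ighm at 10.4, against 4.71 to 7.26. Other markers went the other way, with Adgre1 (2.89) and Cr2 (2.69) at their lowest Th17 value there. Itgam, Ms4a1 and Pax5 were each exceeded on another Th17 array. Th2 replicate 1 lay above the mean of the other Th2 arrays for 25 of 28 members and for 43.4% of all genes, with a median gap of 0.33 in members. Th2 replicate 3 held the lowest of the 10 values for 11 of 28 members, 7 of them enzymes, and for 2997 of all 22180 genes. The pooled SD within groups was 0.56 at the median of the members, against 0.26 at the median of all genes. Differences between groups made up 33.7% of a member's variance at the median, against 19.1% for all genes. At the median the members therefore varied more than all genes, both between and within groups. In mean level they ranked from percentile 61.7 of all genes (Aldoc) to 99.9 (Gapdh). They were not compared with genes of similar level.

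**Figure D3:**
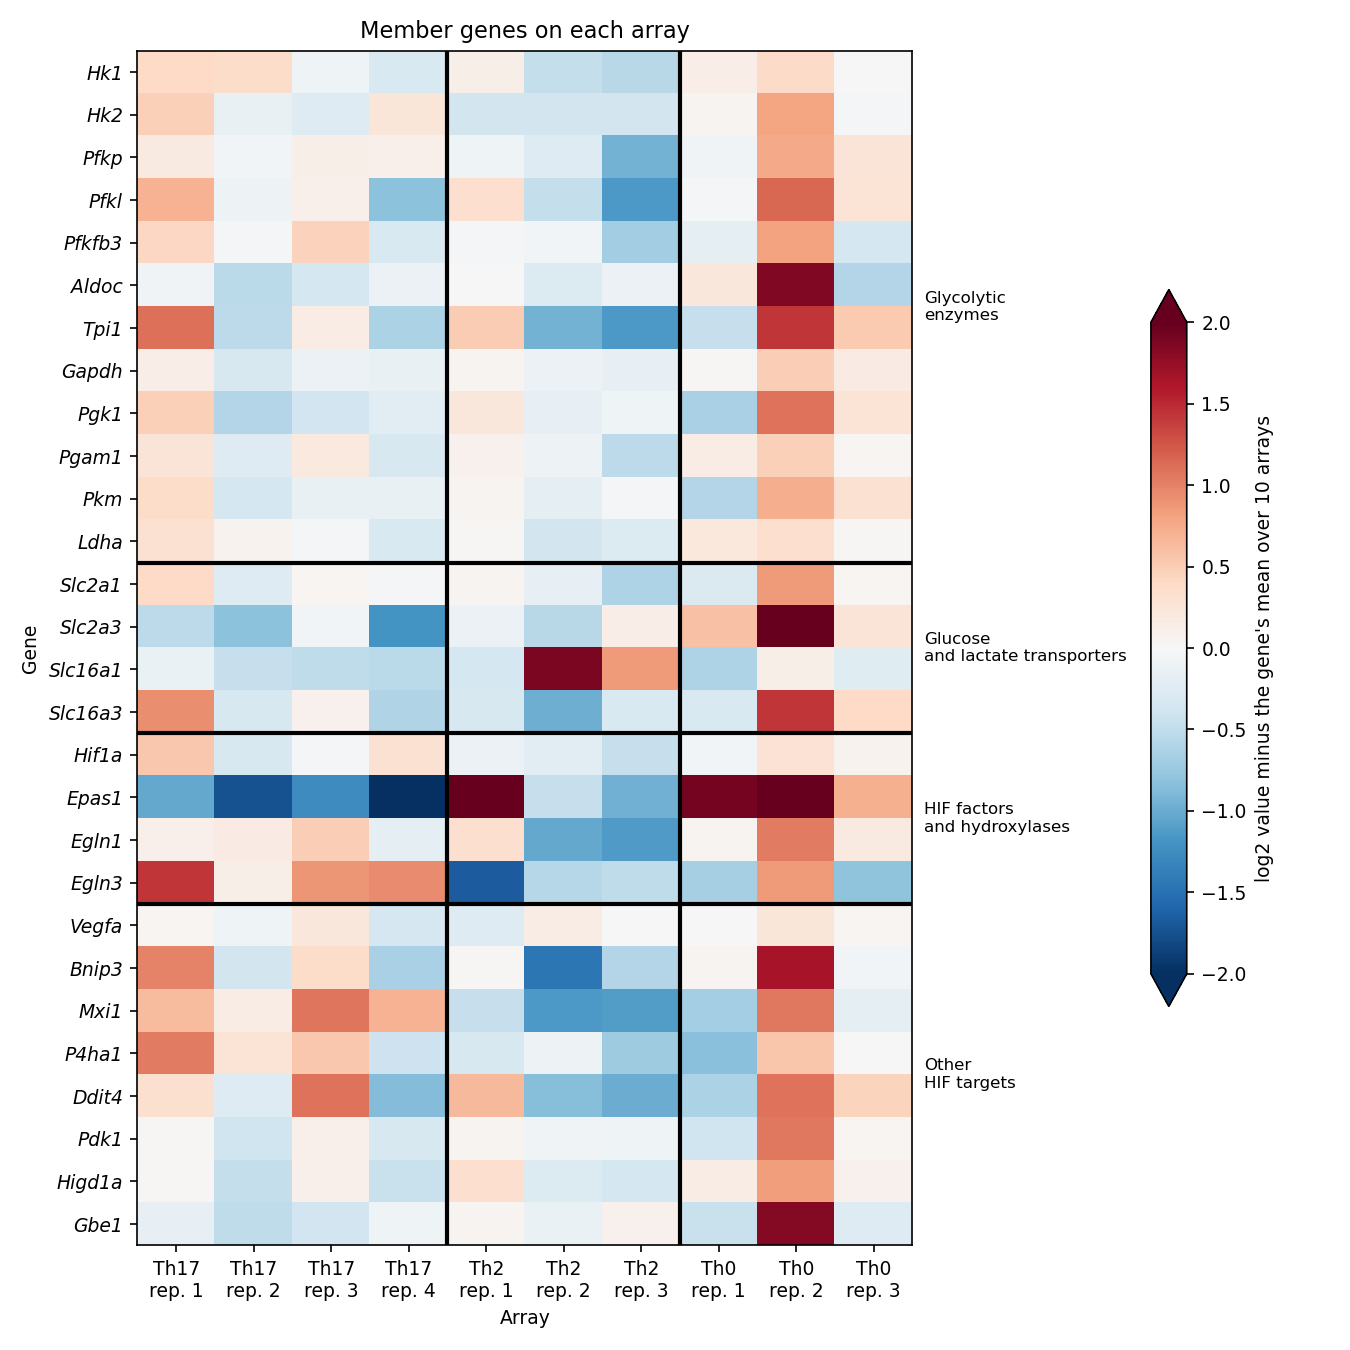
Log2 value minus the gene's mean over the 10 arrays for the 28 measured members (rows, by role) on the Th17, Th2 and Th0 arrays (columns, left to right), with colours limited at −2 and 2. Th0 replicate 2 is above the gene's mean in the whole column, and Epas1 is high on the Th0 arrays and Th2 replicate 1.

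Between Th17 and Th0 cultures, 23 of 28 members were lower in Th17 (53.2% of all genes were lower), with a median difference of −0.24 on the log2 scale against −0.02 for all genes. Epas1 and Slc2a3 had values in Th17 below those of every Th0 array, and no member was higher without overlap. Such separation was found for 4.35% of all genes in the lower direction and for 3.22% in the higher one. None of the 28 members passed an adjusted p of 0.05 (limma, Benjamini-Hochberg over 22180 genes), where 0.104% of all genes did. At an unadjusted p under 0.05 there were 4 members (14.3%), against 5.17% of all genes. Over the alternative settings that count ran from 2 to 8. Without Th0 replicate 2 the median difference of the members was 0.02, 12 were lower and 11 signs turned.

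Between Th2 and Th0 cultures, 27 of 28 members were lower in Th2 (52.3% of all genes), Slc16a1 being the exception, and the median difference was −0.47 against −0.01 for all genes. Pfkp, Hk2, Ldha, Slc2a3 and Hif1a lay below every Th0 array, and no member lay above them all. The same separation held for 3.94% of all genes in the lower and 4.48% in the higher direction. No member passed the adjusted threshold, and neither did any other gene (0%). The unadjusted p was under 0.05 for 8 members (28.6%), against 6.34% of all genes. That count was 1 without Th0 replicate 2, Th2 replicate 2 or Th2 replicate 3. The median was −0.28, with 20 members lower, without Th0 replicate 2. Without the 3 arrays apart, which leaves Th2 replicate 1 alone in its group, it was −0.17, with 25 lower. Without Th2 replicate 1, which lies away from the other Th2 arrays on the first component, 431 genes and 3 members passed, and the unadjusted count was 16.

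Between Th17 and Th2 cultures, 18 of 28 members were higher in Th17, with a median difference of 0.33 against −0.01 for all genes, of which 51.6% were lower. Pfkp, Hk2, Egln3 and Mxi1 were above every Th2 array and Epas1 was below them all. Among all genes, 2.60% were separated in the higher and 3.00% in the lower direction. No member passed the adjusted threshold, which 0.0766% of all genes did, and 4 (14.3%) had an unadjusted p under 0.05, against 6.25% of all genes. Over the alternative settings the unadjusted count ran from 2 to 11. Without the 3 arrays apart on the first component, with Th2 replicate 1 alone in its group, the median of the members was −0.02. In that setting 15 of 28 were lower in Th17. In a test for any difference among the 3 groups, again no member passed, against 0.0631% of all genes. The lowest adjusted p of a member in it was 0.377, for Epas1.

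**Figure D4:**
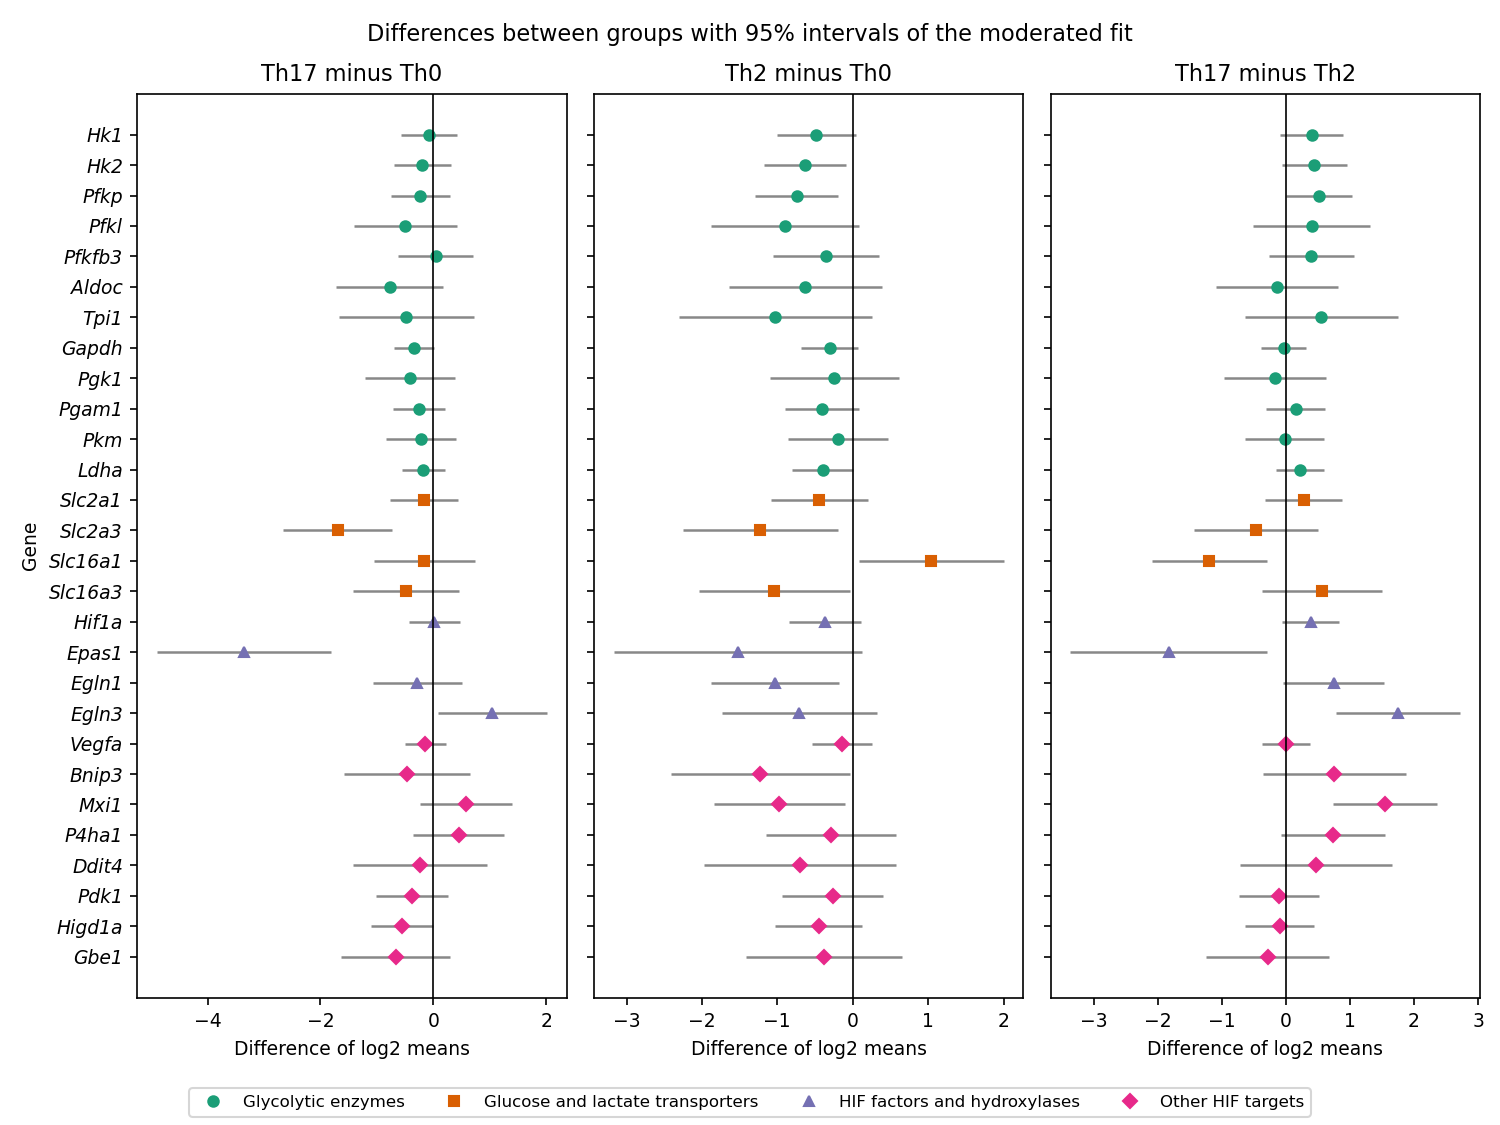
Difference of log2 means for each of the 28 members (rows, coloured by role) in Th17 minus Th0, Th2 minus Th0 and Th17 minus Th2 (panels from left to right), with the 95% interval of the moderated limma fit. The farthest negative point is Epas1 at −3.36 (Th17 minus Th0) and the farthest positive one is Egln3 at 1.76 (Th17 minus Th2).

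The enzymes had small differences, mostly of the same sign within a contrast. Their median difference was −0.24 in Th17 minus Th0 (11 of 12 lower), −0.44 in Th2 minus Th0 (12 of 12 lower) and 0.31 in Th17 minus Th2 (8 of 12 higher). Without Th0 replicate 2 the first was −0.0091, and without Th0 replicate 1 it was −0.43. Without the 3 arrays apart, with Th2 replicate 1 alone in its group, the last was −0.063. The largest differences among enzymes belonged to Tpi1, Pfkl, Aldoc and Pfkp.

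Tpi1, triosephosphate isomerase, had values of 9.71, 8.09, 8.75 and 7.97 in Th17, 9.12, 7.66 and 7.46 in Th2, and 8.15, 10.04 and 9.13 in Th0 cultures. All 3 groups overlapped, and each spanned more than 1 log2 unit. The difference was −1.03 ± 0.58 (SE) in Th2 minus Th0 (adjusted p = 0.815) and −0.48 ± 0.54 in Th17 minus Th0 (adjusted p = 0.999). Pfkp and Pfkl encode the platelet and liver forms of phosphofructokinase, which commits glucose to glycolysis. Pfkp had values of 8.76, 8.53, 8.70 and 8.69 in Th17, 8.50, 8.32 and 7.63 in Th2, and 8.52, 9.34 and 8.84 in Th0 cultures. It ordered the groups with Th2 lowest, below every array of the others by a narrow margin, and its Th17 arrays were close together. Th2 replicate 1 was at 8.502, against 8.519 on Th0 replicate 1 and 8.525 on Th17 replicate 2. The difference was −0.74 ± 0.25 in Th2 minus Th0 (adjusted p = 0.767) and 0.52 ± 0.23 in Th17 minus Th2 (adjusted p = 0.799). Pfkl had values of 6.63, 5.84, 6.04 and 5.12 in Th17, 6.27, 5.45 and 4.79 in Th2, and 5.91, 7.08 and 6.20 in Th0 cultures, which overlapped. Its difference was −0.90 ± 0.44 in Th2 minus Th0 (adjusted p = 0.795).

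Aldoc, an aldolase best known from the brain, rested on a single array. Its values were 4.10, 3.64, 3.83 and 4.06 in Th17, 4.18, 3.90 and 4.07 in Th2, and 4.41, 6.03 and 3.59 in Th0 cultures, so that Th0 replicate 2 alone was high. Hk2, the inducible hexokinase, which traps glucose in the cell, had 6.06, 5.44, 5.32 and 5.82 in Th17, 5.22, 5.22 and 5.21 in Th2, and 5.65, 6.37 and 5.55 in Th0 cultures. The Th2 arrays were below all others and nearly equal. Its difference was 0.44 ± 0.23 in Th17 minus Th2 (adjusted p = 0.871) and −0.64 ± 0.25 in Th2 minus Th0 (adjusted p = 0.767). Ldha, which turns pyruvate into lactate, had 4.62, 4.24 and 4.33 on the Th2 arrays, below the 4.63 to 4.94 of Th0 cultures by a narrow margin. The difference was −0.40 ± 0.18 (adjusted p = 0.792). Its only probe set read low, with a mean of 4.60 over the 10 arrays, against 9.80 for Pgk1 and 10.1 for Pkm. How well that probe set reports Ldha was not tested.

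Gapdh, Pgk1 and Pkm act in the later steps that yield NADH and ATP. Pgk1 differed by −0.17 in Th17 minus Th2 (95% interval −0.97 to 0.63). Pkm, pyruvate kinase, differed by −0.02 in Th17 minus Th2 (95% interval −0.63 to 0.60). Gapdh, often used as a constant reference gene, averaged 11.25 ± 0.19 (SD, n = 4) in Th17, 11.29 ± 0.12 (n = 3) in Th2 and 11.60 ± 0.24 (n = 3) in Th0 cultures, and its adjusted p was 0.972 for Th17 minus Th0. The array also carries 8 probe sets that name Gapdh with another gene or pseudogene, so signal of near-identical copies cannot be told apart. Hk1, Pfkfb3 and Pgam1 had absolute differences of at most 0.48 in the 3 contrasts.

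All 4 transporters were lower in Th17 than in Th0 cultures with all arrays in the fit. Their median difference was −0.32 in Th17 minus Th0, −0.74 in Th2 minus Th0 and −0.09 in Th17 minus Th2. Without Th0 replicate 2 the first was 0.0015, with Slc2a1 at 0.16 and Slc16a1 at 0.02, and the second was −0.35. Slc2a3, the high-affinity glucose transporter GLUT3, had values of 4.77, 4.47, 5.25 and 4.09 in Th17, 5.18, 4.74 and 5.42 in Th2, and 5.88, 7.59 and 5.55 in Th0 cultures. Every polarised array lay below every Th0 array, and Th0 replicate 2 was the farthest from them. The difference was −1.69 ± 0.44 in Th17 minus Th0, a 3.23-fold lower level (adjusted p = 0.471), and −1.22 ± 0.47 in Th2 minus Th0 (adjusted p = 0.767). Without Th0 replicate 2 these were −1.07 and −0.60. Slc2a1, which encodes GLUT1, the main glucose transporter of activated T cells, had 8.65, 7.99, 8.29 and 8.21 in Th17, 8.30, 8.09 and 7.62 in Th2, and 7.95, 9.10 and 8.29 in Th0 cultures. The groups overlapped, and the 95% interval of Th17 minus Th0 was −0.77 to 0.44.

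The lactate transporters had differences of opposite sign in Th2 minus Th0, and neither passed the test. Slc16a1 (MCT1), which carries lactate and pyruvate in either direction, had values of 6.02, 5.69, 5.64 and 5.62 in Th17, 5.80, 8.03 and 7.00 in Th2, and 5.53, 6.26 and 5.91 in Th0 cultures. Th2 replicates 2 and 3 were above every other array, and Th2 replicate 1 lay among the Th17 and Th0 values. The difference was 1.04 ± 0.44 in Th2 minus Th0 (adjusted p = 0.767) and −1.20 ± 0.41 in Th17 minus Th2 (adjusted p = 0.632). Th2 replicates 2 and 3 are arrays that stand apart on the first component. Without the 3 arrays apart, with Th2 replicate 1 alone in its group, the Slc16a1 differences were −0.10 and −0.02. Without Th2 replicate 1 they were 1.61 (adjusted p = 0.0307) and −1.77 (adjusted p = 0.0246). Slc16a3 (MCT4), the lactate exporter of highly glycolytic cells, had 5.40, 4.14, 4.54 and 3.86 in Th17, 4.14, 3.49 and 4.16 in Th2, and 4.16, 5.89 and 4.86 in Th0 cultures. The groups overlapped, and the difference was −1.04 ± 0.45 in Th2 minus Th0 (adjusted p = 0.777).

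The HIF factors and hydroxylases had median differences of −0.13 in Th17 minus Th0, −0.87 in Th2 minus Th0 and 0.56 in Th17 minus Th2. Without Th0 replicate 2 the first was 0.064 and the second −0.50. Without the 3 arrays apart, with Th2 replicate 1 alone in its group, the second was −0.15 and the last 0.040. Epas1, which encodes HIF-2α, had values of 4.38, 3.66, 4.15 and 3.21 in Th17, 7.66, 4.94 and 4.44 in Th2, and 7.31, 8.18 and 6.12 in Th0 cultures. All 4 Th17 arrays were below all arrays of the other groups, and Th2 replicate 1 was with the Th0 arrays. The difference was −3.36 ± 0.70 in Th17 minus Th0, a 10.2-fold lower level (adjusted p = 0.201), and −1.83 ± 0.70 in Th17 minus Th2, a 3.56-fold lower level (adjusted p = 0.692). In Th2 minus Th0 it was −1.53 ± 0.75 (adjusted p = 0.795). The Th17 mean of Epas1 was 3.85, close to the median of 3.57 over all genes and arrays. How far background limits the fold differences was not tested. Epas1 had the largest difference of any member, and it was −2.87 in Th17 minus Th0 without Th0 replicate 2. In Th17 minus Th0 the adjusted p was 0.0192 without Th2 replicate 1, 0.0392 without the 3 arrays apart and 0.0492 with only the arrays of both groups in the fit. It was 0.661 without Th0 replicate 1. Leaving out the 3 arrays with most basophil signal, the lowest adjusted p of any member in Th17 minus Th0 was 0.9997. Without Th2 replicate 1 the Epas1 difference was −2.51 in Th2 minus Th0 (adjusted p = 0.0389) and −0.84 in Th17 minus Th2. Without the 3 arrays apart, with Th2 replicate 1 alone in its group, these were 0.45, a turned sign, and −3.60.

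Hif1a, which encodes HIF-1α, had 9.66, 8.81, 9.09 and 9.43 in Th17, 9.01, 8.91 and 8.66 in Th2, and 9.08, 9.41 and 9.20 in Th0 cultures. Th17 and Th0 overlapped throughout, while the Th2 arrays were below all Th0 arrays. The difference was 0.02 in Th17 minus Th0, with a 95% interval of −0.43 to 0.47. It was −0.37 in Th2 minus Th0 (−0.85 to 0.11) and 0.39 in Th17 minus Th2 (−0.06 to 0.84). The HIF-1α protein was not measured.

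Egln3 (PHD3) was the member with the largest positive difference in Th17 cultures against either other group. It had 8.12, 6.82, 7.58 and 7.64 in Th17, 5.04, 6.12 and 6.19 in Th2, and 6.03, 7.54 and 5.90 in Th0 cultures. Every Th17 array was above every Th2 array, and Th0 replicate 2 was within the Th17 range. The difference was 1.76 ± 0.44 in Th17 minus Th2, a 3.38-fold higher level (adjusted p = 0.344), and 1.05 ± 0.44 in Th17 minus Th0 (adjusted p = 0.928). Without Th0 replicate 2 the Egln3 difference in Th17 minus Th0 was 1.58 (adjusted p = 0.456). Egln1 (PHD2), the main oxygen sensor among the hydroxylases, had 7.17, 7.23, 7.56 and 6.87 in Th17, 7.41, 6.04 and 5.93 in Th2, and 7.13, 8.11 and 7.25 in Th0 cultures. Th2 replicates 2 and 3 were low and Th2 replicate 1 was not. The difference was −1.03 ± 0.38 in Th2 minus Th0 (adjusted p = 0.767), and −1.50 (adjusted p = 0.0341) without Th2 replicate 1. Without the 3 arrays apart, which leaves Th2 replicate 1 alone in its group and assumed to vary like the others, it was −0.082.

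**Figure D5:**
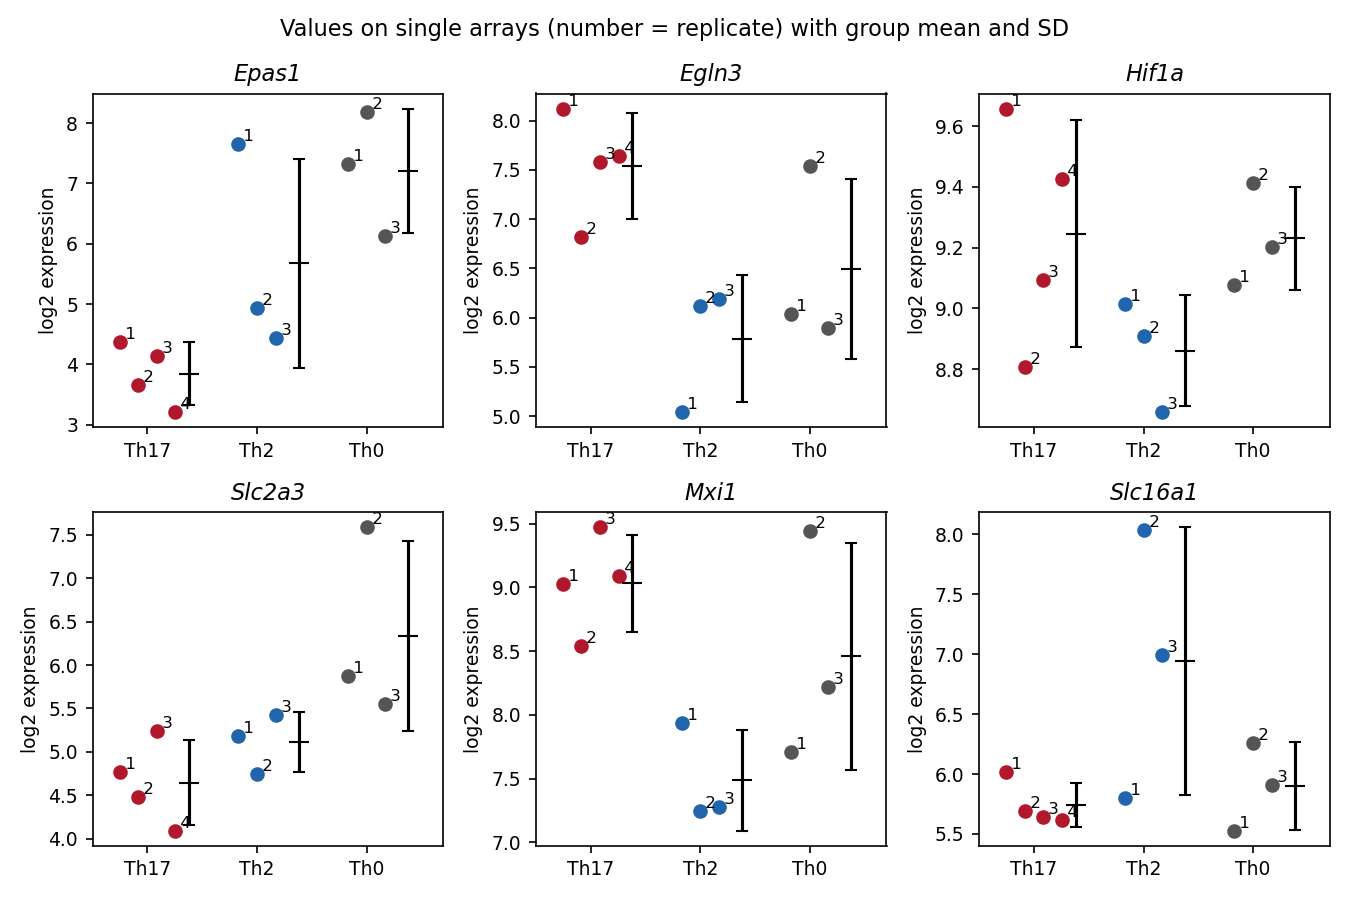
Log2 expression of Epas1, Egln3, Hif1a, Slc2a3, Mxi1 and Slc16a1 on each array (points, numbered by replicate) in Th17, Th2 and Th0 cultures from left to right, with the group mean and SD. Epas1 is at 3.21 to 4.38 on the Th17 arrays and at 6.12 to 8.18 on the Th0 arrays, and Slc16a1 is high on Th2 replicates 2 and 3.

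The other HIF targets had medians of −0.30 in Th17 minus Th0, −0.42 in Th2 minus Th0 and 0.24 in Th17 minus Th2. Leaving out single arrays, these ran from −0.67 to 0.074, the sign turning without Th0 replicate 2, from −0.73 to −0.14, and from 0.023 to 0.44. Mxi1, a MYC antagonist of the MAX network, had values of 9.02, 8.54, 9.47 and 9.09 in Th17, 7.94, 7.24 and 7.27 in Th2, and 7.71, 9.44 and 8.22 in Th0 cultures. The Th17 arrays were above all Th2 arrays, and Th0 replicate 2 again stood with the Th17 arrays. The difference was 1.55 ± 0.37 in Th17 minus Th2, a 2.92-fold higher level (adjusted p = 0.304), and −0.97 ± 0.40 in Th2 minus Th0 (adjusted p = 0.767). With array weights, which give noisier arrays less influence, Mxi1 had an adjusted p of 0.0382 (limma) in Th17 minus Th2. Leaving out Th17 replicate 1 the adjusted p of Mxi1 was 0.597 in that contrast, and leaving out Th17 replicate 3 it was 0.711.

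Bnip3, a mitochondrial protein that promotes the removal of mitochondria, had 6.89, 5.52, 6.26 and 5.25 in Th17, 5.92, 4.44 and 5.31 in Th2, and 5.95, 7.55 and 5.84 in Th0 cultures. The groups overlapped, and the difference was −1.22 ± 0.54 in Th2 minus Th0 (adjusted p = 0.777). P4ha1, a subunit of the prolyl hydroxylase that matures collagen, had 7.71, 6.94, 7.22 and 6.26 in Th17, 6.36, 6.57 and 5.97 in Th2, and 5.84, 7.23 and 6.68 in Th0 cultures. It was among the few members with a positive difference in Th17 minus Th0, 0.45 ± 0.37 (adjusted p = 0.999), beside Egln3, Mxi1, Pfkfb3 and Hif1a. Ddit4, an inhibitor of mTORC1 signalling, had 5.51, 4.93, 6.28 and 4.32 in Th17, 5.83, 4.34 and 4.20 in Th2, and 4.56, 6.28 and 5.64 in Th0 cultures, and each group was widely spread. Vegfa, the endothelial growth factor, had a difference of 0.00 in Th17 minus Th2 (95% interval −0.37 to 0.37). Pdk1, which holds pyruvate back from the mitochondrion, and Gbe1, a glycogen branching enzyme, were high on Th0 replicate 2 (5.94 and 6.74) and at or below 5.00 on every other array. Higd1a, a mitochondrial protein of the respiratory chain, differed by −0.55 ± 0.25 in Th17 minus Th0 (adjusted p = 0.959).

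Where a member had several probe sets, these did not always move alike. Mxi1's other probe set gave 0.73 in Th17 minus Th2, against 1.55 for the one used, and Hif1a's other gave 0.49, against 0.39. Pdk1's other probe set gave −1.06 in Th17 minus Th0, against −0.38. Others differed in sign. Slc2a1's other probe set gave 0.11 in Th17 minus Th0, 0.20 in Th2 minus Th0 and −0.09 in Th17 minus Th2, against −0.16, −0.45 and 0.28 for the one used. Pgam1's other gave 0.03 in Th17 minus Th0, against −0.25. A low-reading probe set that names only Gapdh, with a mean of 3.14, gave 0.20 in Th2 minus Th0, against −0.31 for the one used. Gapdh's remaining probe set of that kind gave −0.32. A probe set naming Slc16a3 and Csnk1d gave 0.03 in Th17 minus Th0, against −0.48, and 0.10 in Th2 minus Th0, against −1.04.

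Beyond the members, 108 further genes of the same pathways were measured, and Plod2 was the one that passed the test. Of all genes, 0.104% passed in Th17 minus Th0, 0% in Th2 minus Th0 and 0.0766% in Th17 minus Th2. The alternative settings were followed for the members and not for these further genes. Plod2, a collagen lysyl hydroxylase and HIF target, rose in Th17 cultures against both other groups. Its values were 6.25, 5.97, 5.96 and 6.93 in Th17, 4.24, 4.30 and 4.23 in Th2, and 4.58, 4.60 and 4.50 in Th0 cultures, with no overlap. The difference was 1.72 ± 0.22 in Th17 minus Th0, 3.29-fold higher (adjusted p = 0.0284), and 2.02 ± 0.22 in Th17 minus Th2, 4.06-fold higher (adjusted p = 0.00788). Its Th0 values lay close together, that of Th0 replicate 2 included.

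The 28 measured genes of the list of further HIF targets had median differences of 0.02 in Th17 minus Th0, −0.09 in Th2 minus Th0 and 0.08 in Th17 minus Th2. Rora, a Th17 lineage factor in the same list, was 1.12 ± 0.18 higher in Th17 than in Th0 cultures (adjusted p = 0.0549) and 1.17 ± 0.18 higher than in Th2 cultures (adjusted p = 0.0586). Of 15 other glycolysis genes none passed, and the lowest p belonged to Eno3, the muscle enolase, at −1.18 ± 0.29 in Th17 minus Th0 (adjusted p = 0.431). Of 11 further sugar and lactate transport genes none passed, and the lowest p was that of Emb, a partner that carries lactate transporters to the membrane, at 2.01 ± 0.44 in Th17 minus Th2 (adjusted p = 0.240). None passed among 10 glycogen genes, 6 pentose phosphate genes, 11 genes of pyruvate entry into mitochondria, 11 genes of the HIF machinery and 16 regulators of glycolysis in T cells. In these 5 lists the median difference lay between −0.24 and 0.17 in the 3 contrasts.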

How the data were processed

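RNA was extracted with miRNeasy including DNase treatment and amplified and labelled with the Ovation PicoSL WTA and Encore Biotin kits, per the labels' protocols. The deposited values are log2 RMA values made by the authors with Affymetrix Expression Console 1.3.0.187, per the submitters' processing notes. For genome build and annotation, no version was given in the sources used here. RMA corrects background and normalises between arrays. The deposited arrays still differed, with medians of 3.39 to 3.61 and interquartile ranges of 1.95 to 2.41 over probe sets.

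Of 41345 probe sets, 23521 name 1 gene, 1814 name several and 16010 are unnamed here. Of the 23521, 23328 Entrez IDs matched RefSeq, and 0 symbols differed. Where a gene had several probe sets, as 1082 did, the one with the highest mean was kept, which left 22180 genes. A linear model of 3 group means was fitted with limma 3.58.1 (R 4.3.3) on all 10 arrays, with empirical Bayes moderation and Benjamini-Hochberg adjustment over all genes, and calls were made at an adjusted p under 0.05. Intervals are 95% intervals of that fit. With 10 arrays, precision is limited by their number. The script was tested on simulated data. Per-array values are given for the 4 members of each role with the largest difference. For the further pathway genes, those that passed or had the lowest p are named.

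The members and gene lists were chosen with earlier results of these data known. The comparison of promoters with measured genes and the count of CG dinucleotides were added after the first share was seen. Groups and replicate numbers follow the titles, and the description of Th2 replicate 3 carries the number 4. Alternatives covered the samples in the fit, array weights, normalization, low genes, the choice of probe set, a replicate block and leaving out arrays. Small RNA arrays were not used here.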

Additional observations from a re-analysis of the deposited data

How the results depend on the processing

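Of the 84 differences of the members, 46 kept their sign under all 22 alternatives. Of the others, turned signs were most frequent without Th0 replicate 2 (11 of 28 in Th17 minus Th0, 7 in Th2 minus Th0), and the cause was not tested. Leaving out single arrays gave 2 to 36 genes passing in Th17 minus Th0, 0 to 431 in Th2 minus Th0 and 3 to 298 in Th17 minus Th2. Members passing then numbered 0 to 1, 0 to 3 and 0 to 1, and 0 to 2 in the test among groups, with the upper values without Th2 replicate 1. Epas1 alone passed in Th17 minus Th0 (1 member) with only the arrays of the 2 groups, and also without the 3 arrays apart on the first component. Array weights let 2 members pass in Th17 minus Th2, Slc16a1 and Mxi1. Passing genes numbered 60 in Th17 minus Th0 and 330 in Th17 minus Th2 with array weights, 30 in Th17 minus Th2 after quantile normalization again, and 6 in Th17 minus Th0 with array medians subtracted. Without the 3 arrays apart, with Th2 replicate 1 alone in its group, the median was −0.15 for HIF factors and hydroxylases in Th2 minus Th0. In Th17 minus Th2 the medians there were −0.063 for enzymes and 0.040 for HIF factors and hydroxylases. Leaving out the 3 arrays with most basophil and mast cell signal, 3 and 6 genes passed in Th17 minus Th0 and Th17 minus Th2, and no member. The Epas1 difference in Th17 minus Th0 was −3.36 there too, with 2 Th17 and 2 Th0 arrays left. The lowest adjusted p of any member in that contrast was then 0.9997 (limma), for Slc2a3. With probe sets of several symbols let in, the transporters' median in Th2 minus Th0 was −0.17. With the replicate block, 8 genes passed in Th17 minus Th0 and 11 in Th17 minus Th2. With a block by the description's numbers, 5 and 5 passed. No member passed with either block. Same-numbered arrays correlated between −0.31 and 0.30 in their deviations, 1 of 9 pairs above 0.1, by the titles' numbers, and between −0.29 and 0.49, 2 of 8 above 0.1, by the descriptions', so neither was taken to pair the arrays. The 0.49 belonged to Th2 replicate 3 and Th17 replicate 4, which carry number 4 in their descriptions and both stand apart on the first component. No Th0 array carries that number. Leaving out the arrays apart, leaving out those high in basophil markers, and the block by description number were chosen after seeing the data. A setting that left out Th0 replicate 2 together with the 3 arrays apart was also tried; it is not reported because it chose an array by the measured outcome.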
